A study of Mus musculus with 24 samples.

Results

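Fads1, Fads2, Me1, Acacb, Acss2 and Elovl3, 6 genes of fatty acid synthesis, elongation and desaturation, were followed in mouse liver RNA. They were chosen by gene symbol, with the deposited results of both strains known, out of 862 named genes with a row in either of 2 expression tables. All 6 had a row in at least 1 table. Liver RNA came from A/J and C57BL/6J, a pair of inbred strains. Mice ate high fat diet for 16 weeks (HF), high fat diet for 8 weeks followed by control diet for 8 weeks (Reversal), or control diet for 16 weeks (Control). Each strain and diet had 2 RNA libraries, 12 in all, and the question set by the series is which effects of high fat diet persist. Nothing in the labels says whether the libraries of a diet came from separate animals. Deposited standard errors and p-values thus rest on the spread between libraries as the authors' fit took it, which may be technical. How deeply each library was sequenced is not stated in the labels or tables.

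Cells build fatty acids from acetyl-CoA. Acss2 makes acetyl-CoA from acetate, acetyl-CoA carboxylases turn it into malonyl-CoA, and malic enzyme, encoded by Me1, supplies NADPH for the reductive steps of fatty acid synthase. The product of Acacb, acetyl-CoA carboxylase 2, sits at the outer mitochondrial membrane, where its malonyl-CoA restrains fatty acid entry for oxidation. Elongases such as Elovl3 lengthen the chains, and the desaturases Fads1 and Fads2 put double bonds into polyunsaturated fatty acids. In liver many of these genes are targets of the transcription factors SREBP-1c, LXR and ChREBP, and dietary polyunsaturated fat is known to lower several of them.

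The authors' deposited tables hold, for each RefSeq transcript that passed an adjusted p of 0.05 in a test over all 3 diets of a strain, a mean normalised count over libraries, a likelihood ratio statistic, and a log2 fold change with its standard error. The fold change compares 2 diets that the tables do not name, called the contrasted diets here, and the remaining one is called the outside diet. Signs are therefore read neither as higher nor as lower on high fat diet. No table holds a value per library, and so no refit was made. Because members entered through these same values, all numbers below are descriptions and carry no test. Less RNA per cell and fewer cells of a type cannot be told apart in these bulk samples.

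In C57BL/6J liver Me1, Acacb, Acss2 and Elovl3 had a row, and Fads1 and Fads2 had none. In A/J liver Fads1, Fads2 and Elovl3 had a row, and Me1, Acacb and Acss2 had none. The authors called 3.46% of 19658 transcripts tested in C57BL/6J and 3.39% of 20591 in A/J. The 4 and 3 members with a row are not read against these shares, since rows chose the members. A gene without a row did not reach the authors' threshold or was not tested, so the difference in rows between the strains was not tested. Elovl3 was the only member with a row in both tables.

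The position of the outside diet can be worked out in size, though not in sign. The contrasted diets account for the square of fold change over standard error in the statistic, and the remainder belongs to the outside diet. With equal libraries and a common spread it gives the distance of that diet from the midpoint of the contrasted diets, on the log2 scale. From it follow 2 gaps, to the nearer and to the farther of the contrasted diets, each with about the standard error of the deposited fold change.

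In C57BL/6J liver the outside diet stood apart from both contrasted diets for every member with a row, and no difference between the contrasted diets was resolved. The 95% interval around the fold change included 0 in 4 of 4 members, while 62.2% of the 455 named genes of that table had one without 0. The 95% interval of the gap to the nearer contrasted diet was above 0 in all 4, against 50.8% of the named genes. This second count follows almost wholly from the first and adds nothing to it, since a gene needs a large statistic to have a row: both held in 164 of the 172 named genes whose fold change interval included 0, which is 36% of all named genes. The median fold change of the 4 members was 0.13, beside 0.12 over all named genes.

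Me1, the malic enzyme gene, had the widest separation of the outside diet relative to its error among the members. Its transcript NM_001198933 had a mean normalised count of 26391, a likelihood ratio statistic of 52.3 and a fold change of 0.00 ± 0.15 (SE, log2) in the authors' deposited table (DESeq2, adjusted p 2.12e-09). The 95% interval of its fold change ran from -0.29 to 0.29. The outside diet differed from both by 0.93 ± 0.15 on the log2 scale, which is 1.90-fold in a direction the table does not give. The other transcript, NM_008615, had a mean normalised count of 26708, a likelihood ratio statistic of 49.6 and a fold change of 0.00 ± 0.15 in the authors' deposited table. Transcripts of 1 gene share reads, and the pair are no independent measurements. Among the 455 named genes Me1 ranked 25 by its statistic.

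A noncoding transcript of A330041J22Rik, which overlaps Me1 in GRCm38, also had a row. In C57BL/6J it had a mean normalised count of 297, a fold change of 0.06 ± 0.24 (SE, log2) and a likelihood ratio statistic of 23.0, from the authors' deposited table, and the outside diet lay 1.00 ± 0.21 from the midpoint. These sizes are close to those of Me1, at a far lower count. In A/J, where Me1 had no row, A330041J22Rik had a row with a fold change of -0.11 ± 0.29, a statistic of 14.8 and an outside diet 0.95 ± 0.25 from the midpoint. No source used here says whether reads were counted by strand, and without strand reads of overlapping genes cannot be told apart.

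Acacb had a fold change of 0.26 ± 0.21 (95% interval -0.15 to 0.67) with a mean normalised count of 8587 and a likelihood ratio statistic of 29.8, from the authors' deposited table (DESeq2, adjusted p 5.11e-05). Of this statistic 28.3 was left for the outside diet, or 94.7%. The outside diet lay 0.83 from the nearer and 1.09 from the farther contrasted diet, with a standard error of 0.21. The farther gap is 2.13-fold, the widest of any member in either strain.

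Acss2, the acetate-activating enzyme gene, had a fold change of 0.34 ± 0.20 (-0.05 to 0.74), a mean normalised count of 15133 and a likelihood ratio statistic of 16.9, from the authors' deposited table (DESeq2, adjusted p 0.0112). Its gaps were smaller than those of Acacb, at 0.48 and 0.82 with a standard error of 0.20. The neighbouring gene Gss, of glutathione synthesis, also had a row, with -0.39 ± 0.16 in the authors' deposited table, an interval clear of 0. Acss2os, an antisense gene that overlaps Acss2, had no row.

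Elovl3, an elongase gene, had a fold change of -0.33 ± 0.21 (-0.75 to 0.09) in C57BL/6J, a mean normalised count of 6503 and a likelihood ratio statistic of 16.1, from the authors' deposited table (DESeq2, adjusted p 0.0150). The gaps of the outside diet were 0.52 and 0.85 with a standard error of 0.21. It was the member nearest to the adjusted p threshold, and together with Acss2 it would leave the table at a threshold of 0.01.

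**Figure D1:**
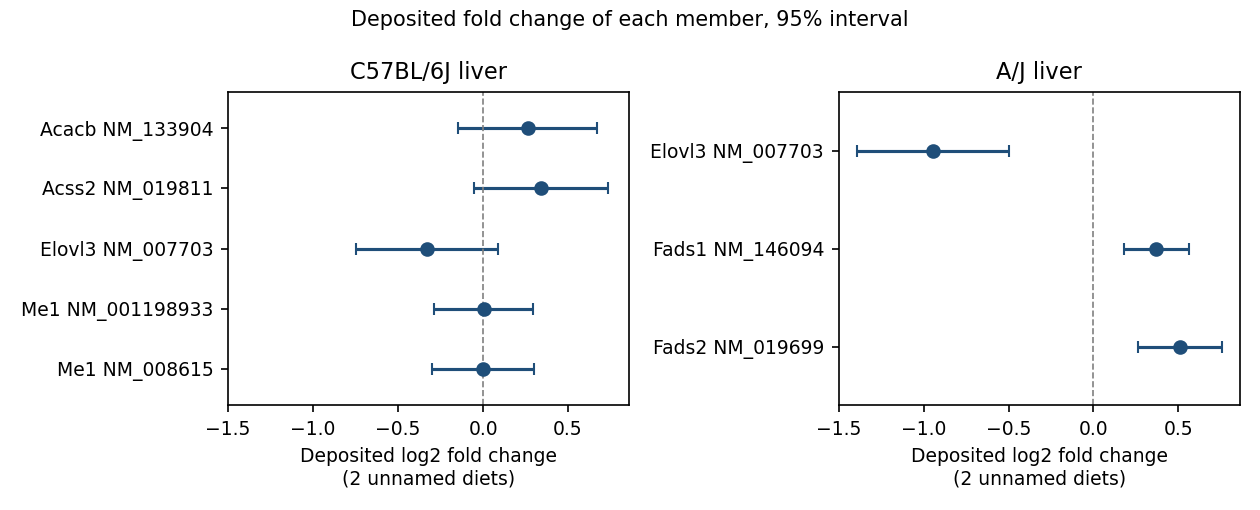
Log2 fold change of every member transcript in the authors' deposited tables (horizontal axis) with its 95% interval, in C57BL/6J liver (left) and A/J liver (right), between 2 diets that the tables do not name. All 5 intervals in C57BL/6J cross 0, and none of the 3 in A/J does.

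Of the 4 members in the C57BL/6J table, 3 had a start region among the RefSeq promoter sequences of GRCm38.p6. They are shown because Me1, Acacb and Acss2 share the pattern of 1 diet apart. Each run is the 250 bases before an annotated start, 5′ to 3′ on the strand of the gene. Capitals mark GC boxes (GGGCGG or its reverse complement) and CCAAT boxes (CCAAT or its reverse complement). The Me1 run is chr9:86695915-86696164 on the minus strand, the Acacb run chr5:114165268-114165517 on the plus strand and the Acss2 run chr2:155517793-155518042 on the plus strand.
Me1: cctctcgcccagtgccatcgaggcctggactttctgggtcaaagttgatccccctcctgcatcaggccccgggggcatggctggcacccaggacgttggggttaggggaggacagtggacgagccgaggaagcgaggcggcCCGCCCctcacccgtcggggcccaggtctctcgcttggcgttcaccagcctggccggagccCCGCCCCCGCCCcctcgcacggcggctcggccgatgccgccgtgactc
Acacb: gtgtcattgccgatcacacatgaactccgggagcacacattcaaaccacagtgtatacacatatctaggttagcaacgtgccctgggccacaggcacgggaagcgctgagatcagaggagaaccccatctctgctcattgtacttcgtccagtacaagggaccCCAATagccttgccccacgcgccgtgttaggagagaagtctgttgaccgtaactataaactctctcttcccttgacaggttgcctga
Acss2: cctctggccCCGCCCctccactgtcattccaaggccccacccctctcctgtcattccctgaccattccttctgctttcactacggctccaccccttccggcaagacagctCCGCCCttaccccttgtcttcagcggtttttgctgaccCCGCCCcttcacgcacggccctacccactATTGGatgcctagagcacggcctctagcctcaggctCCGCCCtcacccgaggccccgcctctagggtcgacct

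The 3 regions differed in base composition, with 72% G and C in Me1, 52.4% in Acacb and 64% in Acss2, where the median over 32851 start regions is 52.4%. GC boxes occurred at 3 positions in Me1, 4 in Acss2 and none in Acacb, and 32.7% of all start regions hold at least 1. The last 2 GC boxes of Me1 adjoin and print as a single run of capitals. A CCAAT box occurred once in Acacb and once in Acss2 and not in the Me1 run, and 33.8% of all start regions hold one. A second Me1 start region held 1 CCAAT box and no GC box. The E-box CACGTG, held by 6.02% of all start regions, and the sterol element TCACNCCAC, held by 1.05%, were searched on both strands and had no match in any member window, which says only that these letters are not there.

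In A/J liver the contrasted diets themselves stood apart for all 3 members with a row. The 95% interval around the fold change was clear of 0 in 3 of 3, against 52.9% of the 482 named genes of the table. The 95% interval of the gap between the outside diet and the nearer contrasted diet reached 0 in 3 of 3, for Fads1 only just. With a negative binomial form of the distance and the outside diet taken as higher, the interval of Fads1 was above 0, which leaves 2 of 3. The interval was above 0 in 64.5% of the named genes. Both features of the members occurred together in 166 of the 255 named genes whose fold change interval left out 0, which is 34.4% of all named genes. The second feature is thus common among genes that have the first. The median fold change of the 3 members was 0.37, beside 0.01 over all named genes. That median is the value of Fads1 alone, and with Fads2 at 0.51 and Elovl3 at -0.94 the members showed no common shift.

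Fads1, the delta-5 desaturase gene, had a fold change of 0.37 ± 0.10 (SE, log2; 95% interval 0.18 to 0.56), a mean normalised count of 29681 and a likelihood ratio statistic of 33.7, from the authors' deposited table (DESeq2, adjusted p 7.78e-06). The contrasted diets thus differed 1.29-fold. The outside diet was placed beyond one of them, with gaps of 0.19 and 0.55 and a standard error of 0.10. Its separation from the nearer one was at the limit of the error, so that its place beyond that diet was not resolved. Rescaled, the deposited standard error implies a variation between libraries of a diet of 6.74% of the mean, the lowest of the members. No spread between the Fads1 libraries was measured, since no values per library were at hand.

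Fads2, the delta-6 desaturase gene, had a fold change of 0.51 ± 0.13 (0.26 to 0.75), a mean normalised count of 26063 and a likelihood ratio statistic of 27.1, from the authors' deposited table (DESeq2, adjusted p 0.000128). The contrasted diets differed 1.42-fold. The outside diet was 0.11 from the nearer and 0.61 from the farther of them, with a standard error of 0.13, so that one contrasted diet and the outside diet differed by less than the error. Fads1 and Fads2 had fold changes of the same sign whose intervals overlapped.

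Fads3, a further gene of the family that neighbours Fads2 on chromosome 19 in GRCm38, had a row in A/J too. Its fold change was 0.65 ± 0.21, with a mean normalised count of 1391, a statistic of 14.5 and gaps of 0.10 and 0.75 for the outside diet, from the authors' deposited table. All 3 neighbouring Fads genes thus had a positive fold change in A/J, as had 248 of the 482 named genes. None had a row in C57BL/6J, where most transcripts have none. The microRNA gene Mir6993, which lies within Fads1 in GRCm38, had a row in A/J with 0.43 ± 0.19 and a mean normalised count of 268 in the authors' deposited table, and its reads cannot be told apart from those of Fads1 here.

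The start region of Fads2 is shown for the Fads genes of A/J, and Fads1 and Elovl3 are named only. It is the 250 bases before the start at chr19:10101504-10101753 on the minus strand in GRCm38.p6 from RefSeq, with 1 GC box in capitals.
Fads2: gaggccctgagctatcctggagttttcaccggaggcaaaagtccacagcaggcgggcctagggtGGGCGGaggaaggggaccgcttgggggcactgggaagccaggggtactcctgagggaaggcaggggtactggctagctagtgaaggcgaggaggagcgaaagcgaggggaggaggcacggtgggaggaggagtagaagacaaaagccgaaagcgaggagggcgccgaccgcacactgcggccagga
It had 64.8% G and C, no CCAAT box and neither the E-box nor the sterol element named above.

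Elovl3 had the largest fold change of the members, -0.94 ± 0.23 in A/J (95% interval -1.39 to -0.49), with a mean normalised count of 2412 and a likelihood ratio statistic of 18.2, from the authors' deposited table (DESeq2, adjusted p 0.00582). One contrasted diet thus had 0.520 times the Elovl3 level of the other. Only 1.21 of the statistic, or 6.66%, was left for the outside diet, which was placed between the contrasted diets, 0.25 from the nearer and 0.69 from the farther with a standard error of 0.23. The nearer gap was within its 95% interval of 0. In C57BL/6J the part left was 85.3%. The fold change was negative in both strains, and since neither table names its diets no test between strains was made. Mean normalised counts come from tables that were normalised separately and are not compared between strains.

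**Figure D2:**
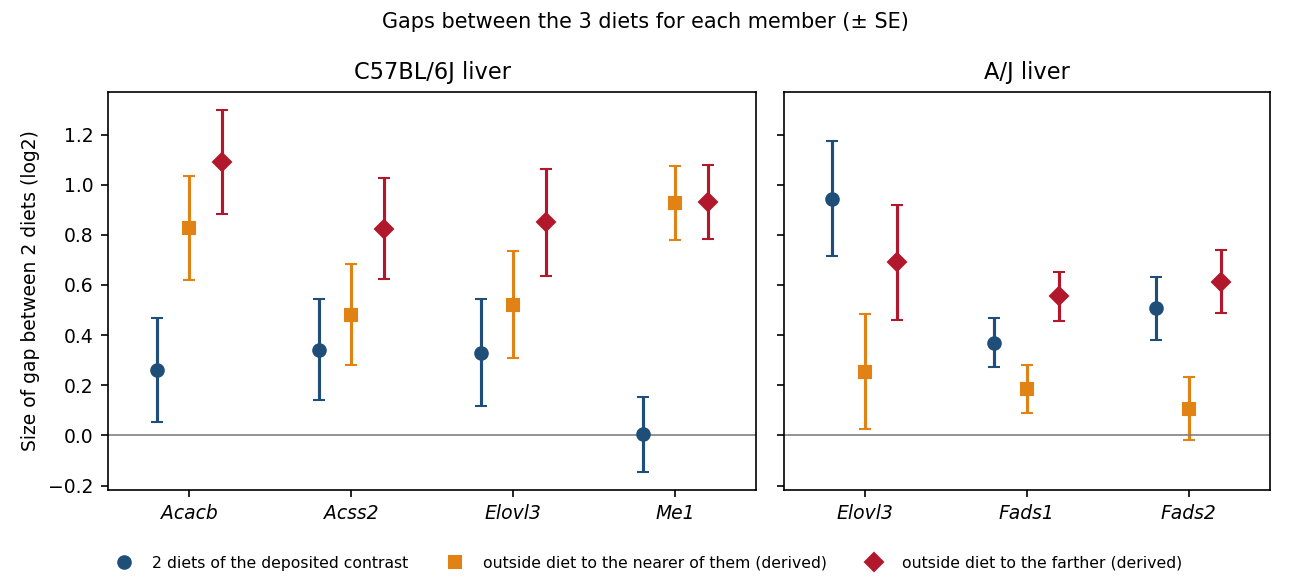
Size of the gap between each pair of diets (log2, vertical axis) for the members with a row in C57BL/6J liver (left) and A/J liver (right), with standard errors. Circles are the deposited fold change without its sign, squares and diamonds the derived gaps of the outside diet to the nearer and the farther contrasted diet. Squares lie above circles for all 4 genes in C57BL/6J and below them for all 3 in A/J.

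The genes nearest to Elovl3 among 74 other genes with a row in both tables were Mup21, Bcl3 and Gstp1. Likeness was the Euclidean distance over 4 values, the fold change and the distance of the outside diet in each strain, and was 0.39, 0.41 and 0.42. It is a rank only, since no typical distance between genes was worked out. In the same order the outside diet lay 0.46, 0.68 and 0.52 from the midpoint in C57BL/6J, beside 0.69 for Elovl3. In A/J it lay 0.25, 0.19 and 0.22 from it, beside 0.22 for Elovl3. Gstp1, a glutathione transferase gene, had fold changes of -0.69 ± 0.17 in C57BL/6J and -0.80 ± 0.17 in A/J. Mup21, of the major urinary protein family, whose close copies can share reads, had -0.10 ± 0.13 in C57BL/6J and -0.72 ± 0.16 in A/J, and Bcl3 had -0.02 ± 0.17 and -0.67 ± 0.18 in the same order, from the authors' deposited tables.

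Around the members stood a list of 42 genes of fatty acid synthesis, elongation, desaturation, esterification and their regulators. In C57BL/6J 5 of the 42 had a row, 4 of them members chosen for their rows, and in A/J 12 had a row, 3 of them members. Of the 36 genes that are no members, 1 (2.78%) had a C57BL/6J row and 9 (25.0%) had an A/J row. The authors called 3.46% and 3.39% of transcripts in the same order, shares that count transcripts where the list counts genes. The list was drawn up with earlier results of these data known and was not matched to all transcripts by mean count. Its shares are therefore read neither against those of all transcripts nor between the strains. Acsl5 and Elovl3 had a row in both tables. For Acsl5, an acyl-CoA synthetase gene, the fold change was 0.16 ± 0.11 in C57BL/6J and 0.16 ± 0.13 in A/J, and the outside diet lay 0.33 ± 0.10 and 0.41 ± 0.11 from the midpoint, from the authors' deposited tables.

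In A/J 7 of the 12 pathway genes had a fold change whose interval included 0 and an outside diet apart from both contrasted diets, the pattern of the members in C57BL/6J. That pattern was found in 46.1% of the named A/J genes, and in 222 of the 227 whose fold change interval included 0. As in C57BL/6J, the outside diet apart thus follows almost wholly from the interval that includes 0. The contrasted diets of the 2 strains may also differ, since neither is named. The stearoyl-CoA desaturase genes had the widest distances, 1.55 ± 0.31 for Scd1 and 1.87 ± 0.51 for Scd2. Their fold changes were 0.17 ± 0.36 and 0.37 ± 0.58. The variation between libraries that these standard errors imply, not measured from libraries, was 25.2% and 40.5% of the mean. Scd1 and Scd2 are close paralogs that may share reads, which makes the lower-count Scd2 uncertain. Elovl5, an elongase of polyunsaturated fatty acids, had a fold change of 0.23 ± 0.14 and a distance of 0.60 ± 0.12. G6pdx, which encodes an NADPH-producing enzyme of the pentose phosphate pathway, had 0.32 ± 0.28 and 0.86 ± 0.24 for the same quantities, from the authors' deposited table.

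Among the regulators in A/J, Srebf1, which encodes SREBP-1, had a fold change of -0.26 ± 0.18 and an outside diet 0.65 ± 0.15 from the midpoint. Insig2, which holds SREBP precursors in the endoplasmic reticulum, had the largest statistic of the list, 66.5, with a fold change of -0.06 ± 0.10 and a distance of 0.72 ± 0.09 (transcript NM_178082, 1 of 4 with a row). Mid1ip1, which encodes an activator of acetyl-CoA carboxylase, had a fold change of -0.99 ± 0.21 from the authors' deposited table, and its outside diet lay 0.10 ± 0.21 from the nearer contrasted diet, so that its place between or beyond them was not resolved. Of the 42 list genes 27 had a row in neither table, as is the case for most transcripts. Among them were Acly, Acaca and Fasn, the genes of the core steps from citrate to palmitate, and Thrsp, Mlxipl, Nr1h3 and Elovl6. A gene without a row missed the threshold or was not tested, so no lack of response is read from this.

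**Figure D3:**
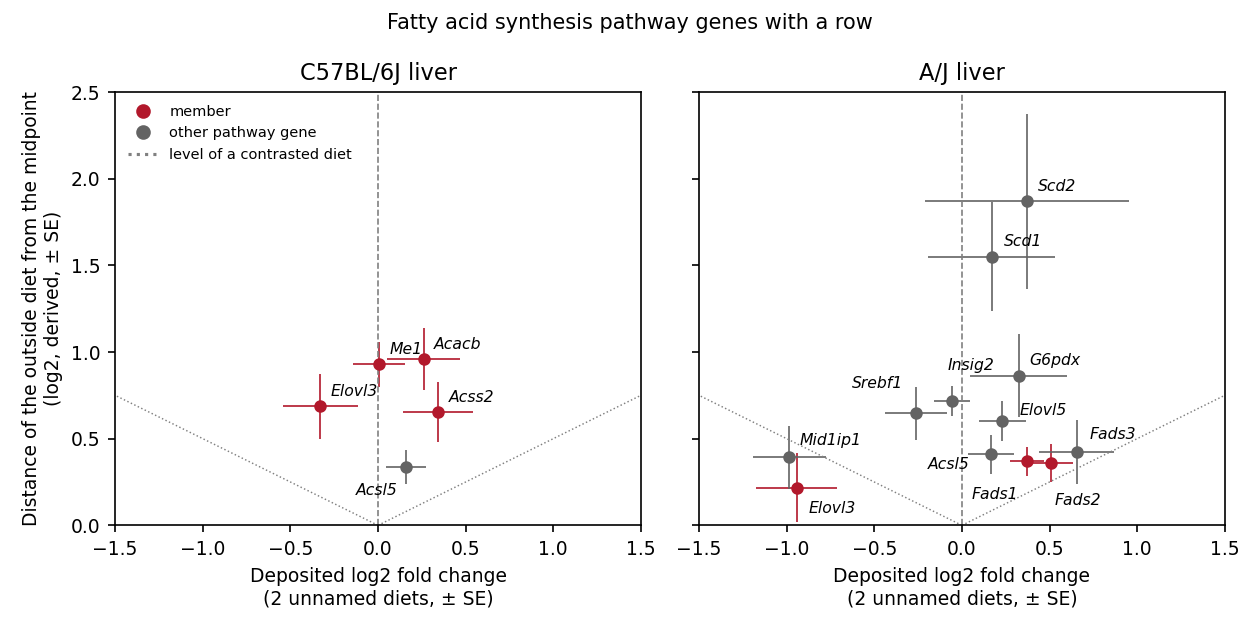
Deposited log2 fold change (horizontal axis) against the derived distance of the outside diet from the midpoint of the contrasted diets (vertical axis, log2) for pathway genes with a row, with standard errors. Points below the dotted lines, Elovl3 and Mid1ip1 in A/J, place the outside diet between the contrasted diets, within the error of the nearer one, and points near the dashed line, such as Me1 in C57BL/6J and Insig2 in A/J, have a fold change near 0.

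Of 12 hepatocyte markers 5 (41.7%) had a row in C57BL/6J, where 3.46% of the transcripts tested had one. The first share counts genes and the second transcripts, and the markers were not matched to all transcripts by mean count. Such shares are therefore read against each other in neither strain. A row marks a difference over the diets and not presence, and the other 7 have no count here. The 5 had mean normalised counts between 44445 for a transcript of Apoc3 and 212557 for Cyp2e1. They had fold changes of both signs there, 0.72 ± 0.13 for Ass1, 0.44 ± 0.13 for Apoc3, 0.30 ± 0.11 for Cps1, 0.08 ± 0.14 for Cyp2e1 and -0.44 ± 0.16 for Apoa1. In A/J 2 of the 12 (16.7%) had a row, where 3.39% of the transcripts tested had one. These were Ass1 at -0.40 ± 0.15 and Cps1 at -0.23 ± 0.10, from the authors' deposited tables. In A/J the outside diet lay 0.52 ± 0.10 from the nearer contrasted diet for Cps1 and 0.10 ± 0.15 for Ass1. Only the first was apart from both, as in 64.5% of the named A/J genes. Of 8 adipocyte markers only Cfd had a row in C57BL/6J, with a mean normalised count of 125, a fold change of 0.56 ± 0.41 and an outside diet 2.17 ± 0.36 from the midpoint. The 1 diet apart was thus seen in Cfd as in Me1 and Acacb, but also in the hepatocyte marker Cyp2e1, at 0.44 ± 0.12 from the midpoint, and in 36% of the named genes. Of the 5 hepatocyte markers Cyp2e1 alone had this pattern, since the fold change intervals of the other 4 left out 0. Among those 4 only Cps1 had an outside diet apart from both contrasted diets, 0.39 ± 0.11 from the nearer. In A/J only Car3 of the 8 adipocyte markers had a row, at -0.21 ± 0.11, with an outside diet 0.34 ± 0.11 from the nearer contrasted diet. The mean normalised count of Car3 was 166141, above those of the hepatocyte markers Ass1 (86926) and Cps1 (96337) in A/J. Which cells the Car3 RNA came from was not tested. Of 8 macrophage markers Cd5l and Marco had a row in A/J, at 0.40 ± 0.22 and 1.09 ± 0.41 in the authors' deposited table. No marker of stellate cells, endothelium or cholangiocytes had a row in either table. The part of such cells in the members' differences was not tested.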

How the data were processed

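Libraries were grouped by title, and weeks of diet follow the treatment protocol, since the tag of the Reversal samples names 16 weeks on control diet instead of 8. The submitters' processing notes name mm9, TopHat, Bowtie2 and DESeq2, without versions or roles. Per the file headers, the authors deposited DESeq2 result columns for RefSeq transcripts: a mean normalised count as signal, a log2 fold change with its standard error, a statistic used here as a score, a p-value and an adjusted p-value. Each deposited p-value equals the chi-square tail with 2 degrees of freedom at the statistic. From both p-values followed how many transcripts had been tested. The largest adjusted p-value kept was 0.0496 in C57BL/6J and 0.0498 in A/J.

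Symbols came from a RefSeq gene table of GRCm38 and matched 675 of 681 C57BL/6J and 690 of 699 A/J transcripts. The transcript with the smallest p stood for a gene. Distances of the outside diet, which assume fold changes without shrinkage and equal libraries, were computed with Python 3.11.15 and scipy 1.17.1. In 36 and 28 transcripts the statistic was below the squared ratio, and the distance was set to 0. Members and lists were chosen with earlier results of these data known. Named genes were all members, pathway list genes with a row, and the 3 genes most like a member. Markers, genes next to or over members, and pathway genes without a row were named after their values were seen. Open chromatin peaks were not used here, since their positions are in mm9 and the gene positions at hand are not.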

Additional observations from a re-analysis of the deposited data

How the results depend on the processing

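Of 51 alternatives, 48 kept a value within its error, a count within 1.5 times or a likelihood ratio statistic with little relative change. For a median the error was the standard deviation between members, 0.30 in C57BL/6J and 0.80 in A/J, which is wide. Only Me1 had more than 1 transcript, so for the other members a change of transcript returned the same value by construction. The 48 thus overstates how far the results were tried. At an adjusted p threshold of 0.01, 2 of the 4 C57BL/6J members kept a row (Me1 and Acacb) and 2 of the 5 pathway genes, the same pair. In A/J 3 members and 8 of 12 pathway genes passed it. Solving a negative binomial likelihood for the outside diet, chosen after seeing the data, moved the members' distances by at most 0.097. It put 1 of 3 A/J members beyond the 95% interval of the nearer diet when the outside diet was taken as higher, since the gap of Fads1 became 0.193. The median fold change in C57BL/6J was 0.00 with every transcript counted, Me1 then entering by 2 transcripts. Leaving out a library was not run, and other filters or normalisations were not run, since the tables hold no values per library. No paired analysis was possible because the tables hold no values per library. The unnamed contrast limits every direction.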
